A study of Homo sapiens with 7 samples.

Results

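The kinetochore is the protein assembly that joins each centromere to the spindle, and the spindle checkpoint is the signal that holds the cell in mitosis until every kinetochore is attached. The 49 genes described here encode centromere, kinetochore, checkpoint and chromosomal passenger proteins. They were taken as a fixed list of gene symbols and matched to the Ensembl identifiers of the deposited count table, where all 49 were found among 60675 gene rows. All 49 also passed the count filter that left 16583 genes for testing.

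MDA-MB-231, the line used throughout, comes from a triple-negative breast cancer and was grown in DMEM with serum before bulk RNA sequencing. In 4 libraries the cells carried siRNA against DEPDC1 (siDEPDC1), and in 3 libraries they carried a control siRNA (siCTL). Both kinds of siRNA were delivered with Lipofectamine RNAiMAX, the medium was changed after 8 h, and RNA was taken 2 days after transfection for TruSeq libraries read as pairs of 100 bases. Neither the siRNA sequence nor the number of duplexes used is given in the sources used here. Since no label calls the replicates separate cultures, the tests speak only of variation among these 7 libraries, which may be technical.

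A kinetochore is built in layers. A nucleosome with the histone variant CENP-A marks the centromere, the constitutive centromere-associated network of CENP proteins sits on it, and the outer network of KNL1, the MIS12 complex and the NDC80 complex reaches from there to the microtubule. Unattached kinetochores recruit the kinases TTK (MPS1) and BUB1 and the proteins BUB3, BUBR1, MAD1 and MAD2, which together produce an inhibitor of the anaphase-promoting complex, while the chromosomal passenger complex with Aurora B releases wrong attachments. Most of these genes are transcribed in a cell cycle pattern that peaks around mitosis, and many are highly expressed in dividing cancer cells.

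Library totals were 7690583 to 13483305 counts in siDEPDC1 and 11704246 to 15360409 counts in siCTL. Levels are CPM (counts scaled to library size with TMM factors), and the labels name no batch. The cell line's defining mesenchymal genes VIM, CD44, EGFR, AXL and CAV1 summed to 5911 to 6359 CPM in siDEPDC1 and 6150 to 6500 CPM in siCTL, mostly VIM. Of these, EGFR fell by 0.28 (log2, edgeR adjusted p = 0.00018) and CAV1 by 0.42 (log2, edgeR adjusted p = 1.1e-07). The hormone receptor genes ESR1 and PGR stayed under 1 CPM in every library, while ERBB2 was at 66.0 ± 4.14 CPM in siDEPDC1 (SD, n = 4) and 64.5 ± 0.869 CPM in siCTL (SD, n = 3), and EPCAM was at 11.6 ± 0.905 CPM in siDEPDC1 and 10.4 ± 0.298 CPM in siCTL. Markers of other cell types (PTPRC, CD3E, CD68, ALB, KRT14 and DES) stayed under 2 CPM, PECAM1 was at 9.78 to 12.6 CPM in siDEPDC1 and 10.5 to 14.2 CPM in siCTL, and KRT5 was at 0 in all siDEPDC1 libraries and at 6.19, 5.05 and 0 CPM in the siCTL libraries. Along the first principal component (52.1% of the variance) the groups lay apart.

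The siRNA target DEPDC1 (ENSG00000024526, chr1:68474152-68497221, GRCh38), which encodes a DEP domain protein of dividing cells, was at 15.3, 12.7, 13.4 and 11.9 CPM in the siDEPDC1 libraries, against 114, 119 and 120.3 CPM in the siCTL libraries. All 4 siDEPDC1 libraries lay far below all 3 siCTL libraries, as the labels state. Its log2 fold change was -3.15 ± 0.075 (SE), with an adjusted p of 1.2e-26 by the quasi-likelihood test of edgeR with Benjamini-Hochberg correction. Throughout, fold changes are siDEPDC1 over siCTL, and a gene is said to have risen or fallen where the adjusted p over all tested genes was under 0.05.

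Kinetochore and checkpoint transcripts tended to be higher after DEPDC1 siRNA, by small amounts, with a few subunits that went the other way. Of the 49 genes, 20 rose, 5 fell and 24 did not pass the test (edgeR). The share that rose was 40.8%, against 16.5% of all tested genes, and the share that fell was 10.2%, against 17.9% of all tested genes. The median log2 fold change of the 49 genes was 0.095, against 0.00094 over all tested genes, and 38 of the 49 values were above 0. The rises ran from 1.11-fold in HJURP to 1.53-fold in CENPW, whereas NSL1 fell by 1.31 on the log2 scale. In 23 of the 49 genes (46.9%) no siDEPDC1 library overlapped any siCTL library, 18 with siDEPDC1 higher and 5 with it lower, against 37.3% of all tested genes in either direction. In bulk samples, fewer cells of a type and less RNA per cell cannot be told apart, and the same holds for more cells in mitosis and more RNA per mitotic cell.

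**Figure D1:**
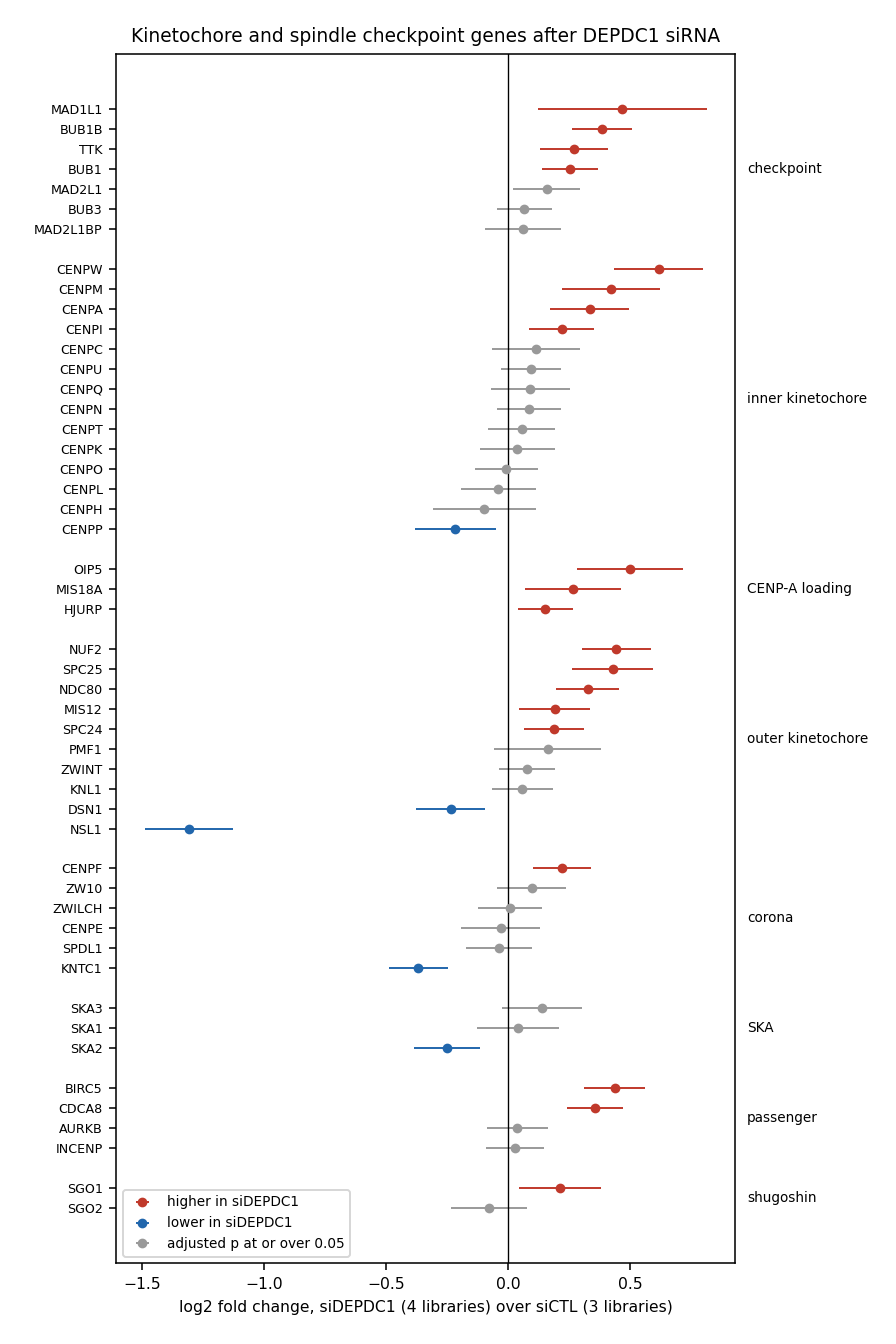
Log2 fold change of each of the 49 genes (x axis, siDEPDC1 over siCTL) with its 95% confidence interval from the edgeR fit, grouped by role and ordered within each role. Red marks genes with an adjusted p under 0.05 and higher in siDEPDC1, blue those lower, and grey the rest. NSL1 stands alone at -1.31, and the 20 red points lie between 0.15 and 0.62.

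Summed over the 49 genes, the level was 4410, 4446, 4400 and 4055 CPM in the siDEPDC1 libraries and 3892, 3965 and 4071 CPM in the siCTL libraries. The siDEPDC1 replicate 4 library therefore stood apart from the other 3 and overlapped the highest siCTL library. It was the lowest of its group for 31 of the 49 genes, and siCTL replicate 1 was the lowest of its group for 29. Without siDEPDC1 replicate 4, 23 genes rose and 5 fell, with a median of 0.15. Of all 16600 genes then tested, 2627 rose and 2767 fell. Without siCTL replicate 1, 13 genes rose and 4 fell, and of all 16828 genes then tested 2164 rose and 2467 fell. With all 7 libraries, 2732 of all 16583 tested genes rose and 2975 fell.

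**Figure D2:**
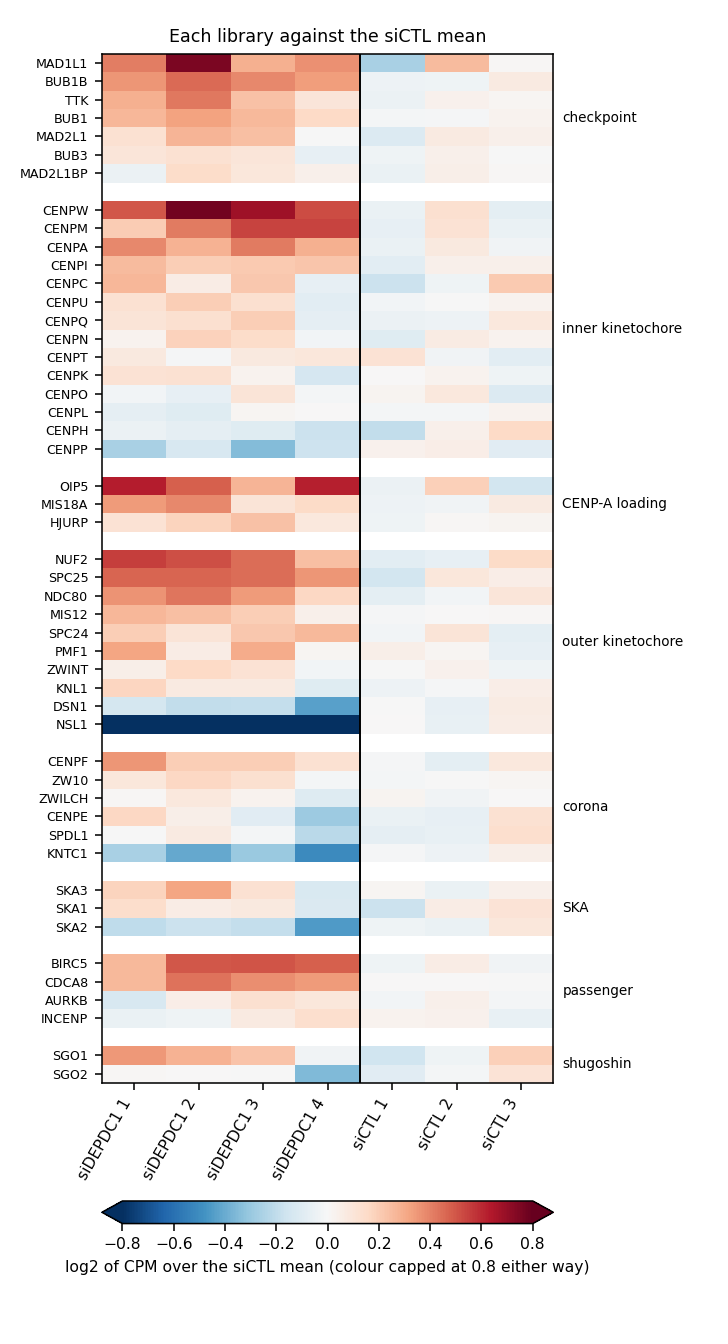
Level of each gene (rows, grouped by role) in each library (columns, siDEPDC1 replicates 1 to 4 left of siCTL replicates 1 to 3), as log2 of its CPM over the siCTL mean, with colour capped at 0.8 either way. The siDEPDC1 replicate 4 column is paler or bluer than its neighbours in most rows, and NSL1 is past the lower cap in all 4 siDEPDC1 libraries.

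The outer kinetochore held the widest split. The NDC80 complex is the rod of 4 subunits that grips the microtubule, and all 4 of its genes rose. The MIS12 complex, also of 4 subunits, links that rod to the centromere, and there 1 gene rose, 2 fell and 1 did not pass the test. Of all tested genes, 16.5% rose and 17.9% fell.

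NUF2 (ENSG00000143228, chr1:163266576-163355764), the partner of NDC80 in the microtubule-binding head, was at 114, 112, 106 and 92.4 CPM in siDEPDC1, against 73.6, 74.5 and 87.0 CPM in siCTL. Every siDEPDC1 library was above every siCTL library, with replicate 4 nearest to them. Its log2 fold change was 0.44 ± 0.070 (SE; edgeR adjusted p = 5.5e-06). NDC80 itself (ENSG00000080986, chr18:2571511-2616635), also known as HEC1, was at 129, 135, 127 and 113 CPM in siDEPDC1, against 95.2, 98.9 and 108 CPM in siCTL. The groups did not overlap, and the log2 fold change was 0.33 ± 0.063 (SE; edgeR adjusted p = 0.00011). SPC25 (ENSG00000152253, chr2:168834132-168913371), which with SPC24 forms the end that docks on MIS12, was at 28.1, 28.1, 27.7 and 26.0 CPM in siDEPDC1, against 18.4, 21.7 and 21.1 CPM in siCTL. The siDEPDC1 values were tightly grouped and all above the siCTL values, with a log2 fold change of 0.43 ± 0.082 (SE; edgeR adjusted p = 9.3e-05). SPC24 rose least, by 0.19 (log2, edgeR adjusted p = 0.016), and its groups touched at 98.8 CPM. That call was lost without siCTL replicate 1 (edgeR adjusted p = 0.069) or siCTL replicate 3 (edgeR adjusted p = 0.096).

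The 3 strongest rises of this complex have a feature in common in their promoters, which is also found in genes that did not pass the test. Cell cycle genes that peak around mitosis often carry a CHR element (TTTGAA) close to the start site together with CCAAT boxes upstream, the motifs read by the DREAM complex, B-MYB with FOXM1, and NF-Y. These windows run from 100 bases before to 50 bases after the start site in RefSeq (GRCh38.p14), on the strand of the gene, and capitals mark TTTGAA or CCAAT on either strand.
NDC80 promoter, chr18:2571457-2571606, plus strand: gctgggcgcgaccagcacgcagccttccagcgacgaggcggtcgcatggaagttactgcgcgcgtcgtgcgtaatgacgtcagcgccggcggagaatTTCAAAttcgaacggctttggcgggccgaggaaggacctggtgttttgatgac
NUF2 promoter, chr1:163321854-163322003, plus strand: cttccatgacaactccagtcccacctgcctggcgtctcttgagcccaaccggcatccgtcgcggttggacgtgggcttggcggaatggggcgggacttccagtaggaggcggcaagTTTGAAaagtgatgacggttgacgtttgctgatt
SPC25 promoter, chr2:168890381-168890530, minus strand: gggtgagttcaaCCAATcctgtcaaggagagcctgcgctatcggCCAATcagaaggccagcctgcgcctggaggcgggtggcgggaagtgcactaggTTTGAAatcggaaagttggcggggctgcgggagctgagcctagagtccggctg
In NDC80 and SPC25 the motif starts 3 bases before the start site, and in NUF2 it starts 17 bases after it. CCAAT stands in capitals in the SPC25 window alone of these. The promoter of SPC24, which also rose, lacks TTTGAA. In the wider window described later, TTTGAA was in 8 of 16 genes that rose and 11 of 20 that did not pass the test. It was in 0 of 4 that fell, all counts being of kinetochore genes with a promoter entry. The motif was thus not particular to genes that rose, and the differences in share were not tested. A motif match is a description of letters and says nothing of binding.

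In the MIS12 complex the fall of NSL1 was the largest change of all 49 genes. NSL1 (ENSG00000117697, chr1:212726153-212791782), a subunit whose tail helps to dock KNL1, was at 10.3, 11.1, 10.9 and 10.6 CPM in siDEPDC1, against 26.7, 25.5 and 27.7 CPM in siCTL. Neither group spread by more than a few CPM, and the gap between them was far wider. The means were 10.7 ± 0.376 CPM in siDEPDC1 (SD, n = 4) and 26.7 ± 1.09 CPM in siCTL (SD, n = 3), which is 2.48-fold lower after DEPDC1 siRNA. Its log2 fold change of -1.31 ± 0.089 (SE; edgeR adjusted p = 4.4e-14) ranked 75 among the falls of all 16583 tested genes, by size.

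DSN1 (ENSG00000149636, chr20:36751791-36773818), the subunit whose phosphorylation by Aurora B opens the complex to CENP-C, was at 57.3, 55.2, 55.4 and 46.8 CPM in siDEPDC1, against 63.1, 60.3 and 66.2 CPM in siCTL. The groups did not overlap, and siDEPDC1 replicate 4 was the lowest library. The fall was 0.24 in size, with a log2 fold change of -0.24 ± 0.070 (SE; edgeR adjusted p = 0.0079). MIS12, which pairs with PMF1 to form the head of the complex that faces the centromere, rose by 0.19 (log2, edgeR adjusted p = 0.038), a call that was lost when any of the 7 libraries except siDEPDC1 replicate 4 was left out (edgeR adjusted p from 0.065 to 0.103). MIS12 also shares 301 exon bases with DERL2 on the opposite strand, which had 4076 counts in all against 3412 for MIS12. PMF1 was at 0.16 (log2, edgeR adjusted p = 0.26), with a 95% interval of -0.06 to 0.38.

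Relative to MIS12, the NSL1 level per kilobase of transcript was 0.259, 0.285, 0.290 and 0.312 in siDEPDC1, against 0.817, 0.771 and 0.836 in siCTL. The DSN1 level per kilobase relative to MIS12 was 1.31 to 1.39 in siDEPDC1 and 1.73 to 1.90 in siCTL. Neither ratio overlapped between the groups, while that of PMF1 to MIS12 did, at 0.626 to 0.763 in siDEPDC1 and 0.677 to 0.742 in siCTL. The transcripts of the subunits of this complex thus stood in other proportions after DEPDC1 siRNA, and the protein was not measured.

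NSL1 and DSN1 share a short word in the 3′ UTR. The 7-base word GATAACT was searched because earlier work on these libraries had found it among genes that fell, so its association with falls is not independent evidence here. Small RNAs, siRNAs included, can lower transcripts whose 3′ UTR pairs with their seed. Of 12309 tested genes with a searched 3′ UTR, 949 (7.71%) carried the word in the kept transcript of GENCODE release 29. Among carriers 54.1% fell and 8.3% rose, with a median log2 fold change of -0.24. Among the 11360 other genes 17.5% fell and 19.65% rose, with a median of 0.014. Of the 49 kinetochore genes, 5 (10.2%) carried it. Each site is given as 30 bases of the transcript with the word in capitals, and the coordinates (GRCh38) are those of the word.
NSL1 3′ UTR site, chr1:212737806-212737812, minus strand: tgtaagacaatGATAACTattatttgtgca
DSN1 3′ UTR site, chr20:36752682-36752688, minus strand: ttgcctttgaaGATAACTggcaggactgac
MAD2L1 3′ UTR site, chr4:120056561-120056567, minus strand: acaataaggtaGATAACTtcatagaccatt
CENPL 3′ UTR site, chr1:173800399-173800405, minus strand: atactcttattGATAACTtgcctaattgct
SKA1 3′ UTR site, chr18:50393831-50393837, plus strand: atgggcacctgGATAACTcaggatgggggc
Of these 5 carriers, NSL1 and DSN1 fell and none rose, where 54.1% of all carriers fell and only 8.3% rose. MAD2L1 was at 0.16, SKA1 at 0.04 and CENPL at -0.04 on the log2 scale, none of them past the test. Of the other 44 genes, 20 rose and 3 fell. The word is in the 3′ UTR of 1 of 4 coding isoforms of NSL1, 5 of 5 of DSN1, 1 of 1 of MAD2L1, 3 of 3 of CENPL and 1 of 4 of SKA1. It is also in 1 of 6 coding isoforms of CENPN, which was not past the test and is counted among the other 44 because its kept transcript lacks the word. Counts per gene do not tell which isoform was present. Whether the word pairs with the siRNA was not tested, for want of the siRNA sequence.

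**Figure D3:**
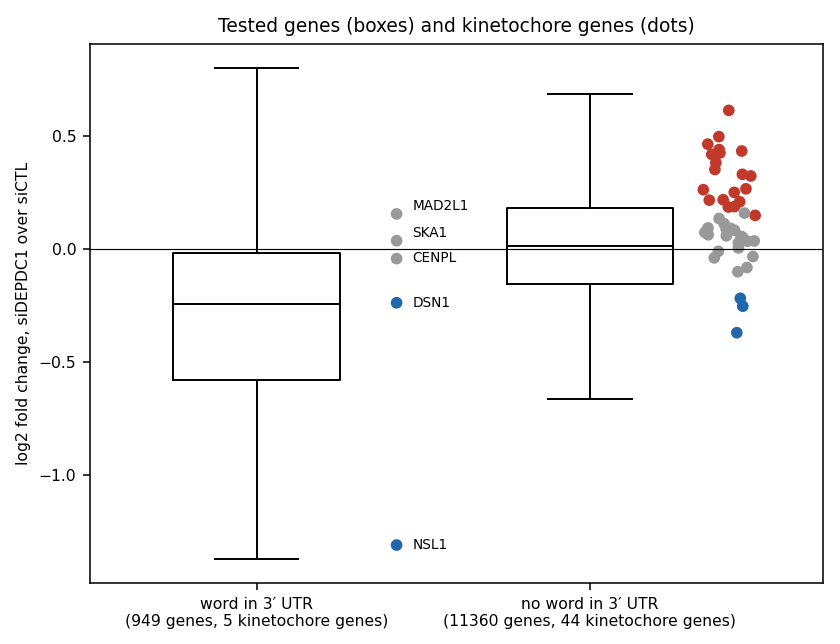
Log2 fold change (y axis, siDEPDC1 over siCTL) of tested genes with (left) and without (right) the word GATAACT in the 3′ UTR. Boxes span the quartiles of all tested genes with the median as a line, whiskers reach the most extreme gene within 1.5 box heights and genes beyond are not drawn; dots are the kinetochore genes, red for those that rose, blue for those that fell and grey for the rest. NSL1 and DSN1 are the only blue dots on the left, and no red dot is there.

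The remaining outer genes did not pass the test. KNL1, the scaffold whose repeats bind BUB3 and the BUB kinases, was at 0.06 (log2, edgeR adjusted p = 0.50). ZWINT, its partner, was at 0.08 (log2, edgeR adjusted p = 0.32). Per kilobase of transcript ZWINT had the highest level of the 49 genes in both groups, 90.2 ± 4.90 CPM in siDEPDC1 (SD, n = 4) and 85.6 ± 2.06 CPM in siCTL (SD, n = 3).

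Of the 7 spindle checkpoint genes, 4 rose, none fell and 3 did not pass the test (edgeR), with a median log2 fold change of 0.25. The share that rose was 57.1%, against 16.5% of all tested genes, of which 17.9% fell. The genes that rose encode the kinases TTK and BUB1, as well as BUBR1 and MAD1.

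BUB1B (ENSG00000156970, chr15:40161023-40221136), which encodes BUBR1, the part of the mitotic checkpoint complex that blocks the anaphase-promoting complex, was at 97.7, 105, 100.2 and 96.8 CPM in siDEPDC1, against 74.5, 74.8 and 80.7 CPM in siCTL. All 4 siDEPDC1 libraries were above all 3 siCTL libraries, with a gap wider than the spread of either group. The log2 fold change was 0.38 ± 0.060 (SE; edgeR adjusted p = 4.3e-06). BUB1 (ENSG00000169679, chr2:110637698-110678114), the kinase that marks centromeric chromatin for shugoshin and recruits other checkpoint proteins, was at 176, 182, 174 and 163 CPM in siDEPDC1, against 144, 145 and 149 CPM in siCTL. The groups did not overlap, and the log2 fold change was 0.25 ± 0.056 (SE; edgeR adjusted p = 0.00053). TTK (ENSG00000112742, chr6:80003887-80042527), the kinase MPS1 at the top of the checkpoint, was at 73.8, 81.2, 71.4 and 64.8 CPM in siDEPDC1, against 58.6, 62.0 and 61.1 CPM in siCTL. The lowest siDEPDC1 library, replicate 4, was still above the highest siCTL library, and the log2 fold change was 0.27 ± 0.068 (SE; edgeR adjusted p = 0.0023).

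MAD1L1, which encodes the MAD1 template that converts MAD2 to its active form, rose by 0.47 (log2, edgeR adjusted p = 0.032) at a very low level, 4.88 ± 0.745 CPM in siDEPDC1 (SD, n = 4) and 3.57 ± 0.627 CPM in siCTL (SD, n = 3). That call was lost without siDEPDC1 replicate 2 (edgeR adjusted p = 0.18), siCTL replicate 1 (edgeR adjusted p = 0.18) or siCTL replicate 3 (edgeR adjusted p = 0.053). With 1.63 CPM per kilobase in siDEPDC1 and 1.19 in siCTL it was the lowest of the 49 genes on that scale.

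MAD2L1 (ENSG00000164109, chr4:120055608-120067074), which encodes MAD2, was at 80.7, 89.6, 87.8 and 74.0 CPM in siDEPDC1, against 69.0, 78.0 and 76.3 CPM in siCTL. The groups overlapped through siDEPDC1 replicate 4, and the gene just missed the threshold, at 0.16 ± 0.067 (log2, SE; edgeR adjusted p = 0.067). It passed without siDEPDC1 replicate 4 (0.21, edgeR adjusted p = 0.010) or without siDEPDC1 replicate 1 (0.17, edgeR adjusted p = 0.044). BUB3, the adaptor that carries BUB1 and BUBR1 to KNL1, was at 0.07 (log2, edgeR adjusted p = 0.39), and MAD2L1BP, which encodes p31comet and helps to switch the checkpoint off, was at 0.06 (log2, edgeR adjusted p = 0.58).

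The RZZ complex of ROD, ZW10 and ZWILCH, together with Spindly, forms the fibrous corona on unattached kinetochores, recruits dynein and keeps MAD1 there. KNTC1 (ENSG00000184445, chr12:122527246-122626396), which encodes ROD, was at 144.5, 130.0, 141 and 121 CPM in siDEPDC1, against 172, 168 and 179 CPM in siCTL. Every siDEPDC1 library was below every siCTL library, with a log2 fold change of -0.37 ± 0.059 (SE; edgeR adjusted p = 7.3e-06). Its partners did not follow it past the test. ZW10 was at 0.10 (edgeR adjusted p = 0.30), ZWILCH at 0.01 (edgeR adjusted p = 0.95) and SPDL1, the gene of Spindly, at -0.04 (edgeR adjusted p = 0.71), all on the log2 scale. The KNTC1 level per kilobase relative to ZW10 was 1.17 to 1.36 in siDEPDC1 and 1.70 to 1.78 in siCTL, with no overlap. That of ZWILCH to ZW10 did not overlap either, at 0.952 to 0.969 in siDEPDC1 and 1.01 to 1.05 in siCTL. Of 15 such ratios taken within complexes, 9 did not overlap between the groups. KNTC1 does not carry GATAACT in its 3′ UTR, although the word occurs once in the rest of its kept transcript. The same holds at least once in 8 other of the 49 genes, of which 3 rose, none fell and 5 did not pass the test. Of all tested genes, 16.5% rose and 17.9% fell, and the share among all genes with the word outside the 3′ UTR was not measured.

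CENPF, a large corona protein that binds dynein regulators, rose by 0.22 (log2, edgeR adjusted p = 0.0037), at 618 ± 43.0 CPM in siDEPDC1 (SD, n = 4) and 531 ± 29.8 CPM in siCTL (SD, n = 3). Without siCTL replicate 2 it narrowly missed the threshold (0.18, edgeR adjusted p = 0.051). CENPE, the kinesin that carries chromosomes to the spindle equator, was at -0.03 (log2, edgeR adjusted p = 0.79).

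The SKA complex strengthens the hold of NDC80 on shrinking microtubules. SKA2 (ENSG00000182628, chr17:59109951-59155269) was at 83.2, 85.1, 84.0 and 69.9 CPM in siDEPDC1, against 93.4, 92.4 and 102 CPM in siCTL. The groups did not overlap, and siDEPDC1 replicate 4 was well below the other 3. Its log2 fold change was -0.25 ± 0.066 (SE; edgeR adjusted p = 0.0030), and it still passed the test without that library. SKA1, at 0.04 (edgeR adjusted p = 0.76), and SKA3, at 0.14 (edgeR adjusted p = 0.20), did not pass it, although SKA3 did without siDEPDC1 replicate 4 (0.22, edgeR adjusted p = 0.021). The SKA2 level per kilobase relative to SKA1 was 2.76 to 2.99 in siDEPDC1 and 3.25 to 3.85 in siCTL.

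The chromosomal passenger complex consists of the kinase Aurora B, the scaffold INCENP, and survivin and borealin, which bring the kinase to the centromere. The genes of the targeting subunits rose, and those of the kinase and the scaffold did not pass the test. BIRC5 (ENSG00000089685, chr17:78214186-78225636), which encodes survivin, was at 149, 175, 176 and 173 CPM in siDEPDC1, against 121, 129 and 122 CPM in siCTL. Replicate 1 was the lowest siDEPDC1 library and still above all siCTL libraries. The log2 fold change was 0.44 ± 0.061 (SE; edgeR adjusted p = 6.4e-07), the smallest p among the rises. CDCA8 (ENSG00000134690, chr1:37692418-37709719), which encodes borealin, was at 169, 190.2, 183 and 179 CPM in siDEPDC1, against 141, 141 and 140.5 CPM in siCTL. The siCTL libraries were almost equal, and all siDEPDC1 libraries were above them, with a log2 fold change of 0.35 ± 0.056 (SE; edgeR adjusted p = 5.3e-06).

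AURKB (ENSG00000178999, chr17:8204733-8210600), the kinase gene, was at 91.4, 104, 109 and 106 CPM in siDEPDC1, against 98.3, 103 and 99.0 CPM in siCTL. The siDEPDC1 libraries lay on both sides of the siCTL libraries, and the log2 fold change was 0.04 ± 0.062 (SE; edgeR adjusted p = 0.69), with a 95% interval of -0.09 to 0.16. INCENP was at 0.03 (log2, edgeR adjusted p = 0.74). Set against INCENP per kilobase of transcript, BIRC5 was at 1.55 to 1.80 in siDEPDC1 and 1.19 to 1.28 in siCTL, and CDCA8 was at 1.74 to 2.08 in siDEPDC1 and 1.47 to 1.57 in siCTL. The ratio of AURKB to INCENP overlapped, at 2.16 ± 0.117 in siDEPDC1 (SD, n = 4) and 2.15 ± 0.0739 in siCTL (SD, n = 3).

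**Figure D4:**
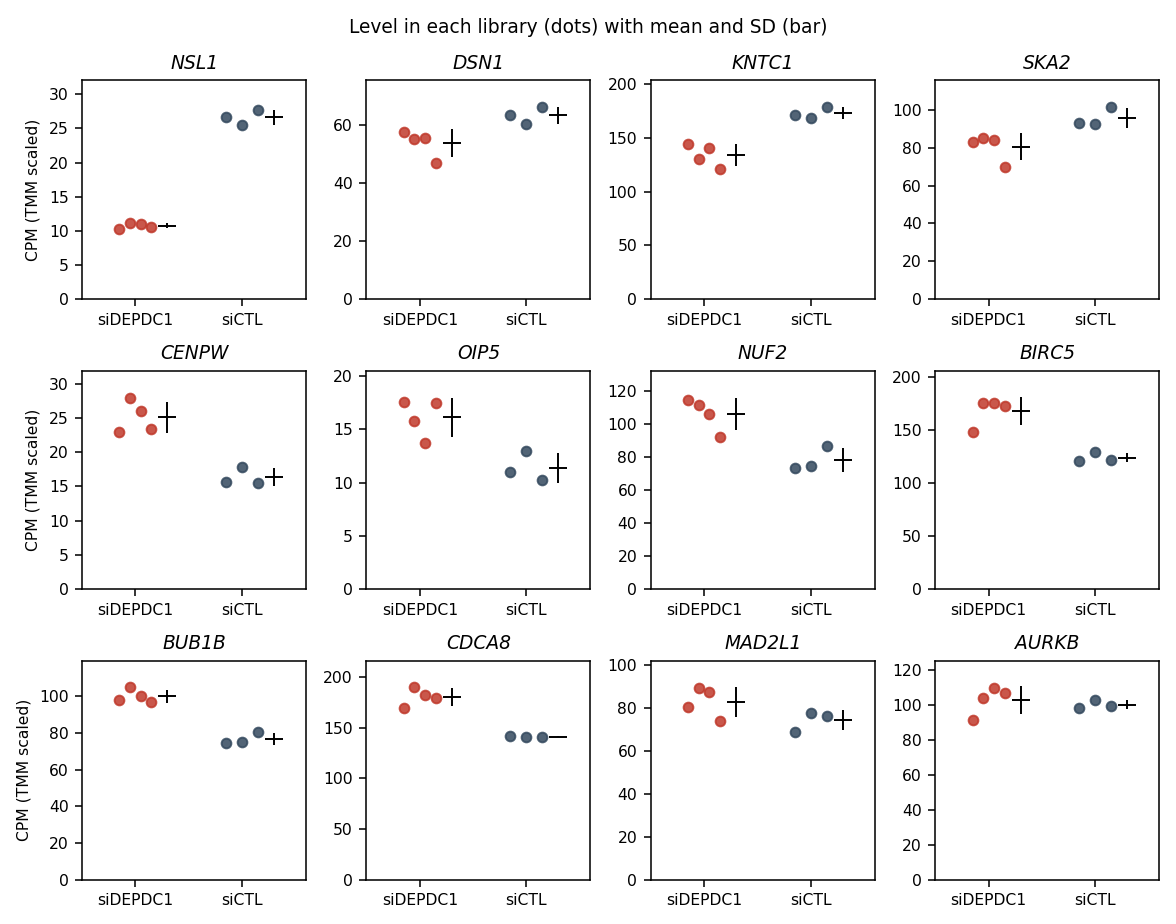
CPM scaled with TMM factors (y axis, from 0) of 12 of the genes in each library, siDEPDC1 replicates 1 to 4 in red left of siCTL replicates 1 to 3 in dark blue, with the mean as a horizontal and the SD as a vertical bar. NSL1, DSN1, KNTC1 and SKA2 in the top row are lower in every siDEPDC1 library, the next 6 are higher in every siDEPDC1 library, and MAD2L1 and AURKB overlap.

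Shugoshins protect centromeric cohesin until anaphase. SGO1 rose by 0.21 (log2, edgeR adjusted p = 0.045), with overlapping groups of 41.4 to 53.7 CPM in siDEPDC1 and 37.9 to 48.1 CPM in siCTL. Leaving out any library except siDEPDC1 replicate 4 or siCTL replicate 3 ended that call (edgeR adjusted p from 0.081 to 0.27). SGO1 shares 679 exon bases with SGO1-AS1 on the opposite strand, which had 1498 counts in all against 3785 for SGO1, so its value is uncertain. SGO2 was at -0.08 (log2, edgeR adjusted p = 0.45).

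In the inner kinetochore, which holds 14 of the genes, 4 rose, 1 fell and 9 did not pass the test (edgeR), with a median log2 fold change of 0.09. The share that rose was 28.6%, against 16.5% of all tested genes, and the share that fell was 7.14%, against 17.9%. CENPW (ENSG00000203760, chr6:126340174-126348875), a small histone-fold protein that pairs with CENP-T to bind DNA, was at 23.0, 27.8, 26.1 and 23.4 CPM in siDEPDC1, against 15.7, 17.9 and 15.5 CPM in siCTL. The groups were clearly apart. The log2 fold change of 0.62 ± 0.090 (SE; edgeR adjusted p = 1.4e-06) was the largest rise of the 49 genes. CENPT, its partner, was at 0.05 (log2, edgeR adjusted p = 0.58), and the CENPW level per kilobase relative to CENPT was 1.38 to 1.78 in siDEPDC1 and 0.919 to 1.15 in siCTL.

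CENPM (ENSG00000100162, chr22:41938721-41947164), a small GTPase-like subunit of the CENP-HIKM complex, was at 15.8, 18.3, 19.9 and 20.0 CPM in siDEPDC1, against 13.1, 14.8 and 13.2 CPM in siCTL. The lowest siDEPDC1 library was just above the highest siCTL library. The log2 fold change was 0.42 ± 0.098 (SE; edgeR adjusted p = 0.00098). CENPI, of the same complex, rose by 0.22 (log2, edgeR adjusted p = 0.0085), a call that was lost without siCTL replicate 1 (edgeR adjusted p = 0.083). The other subunits, CENPH at -0.10 (edgeR adjusted p = 0.49) and CENPK at 0.04 (edgeR adjusted p = 0.74), did not pass the test.

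CENPA (ENSG00000115163, chr2:26764289-26801067), the centromeric histone, was at 28.9, 26.8, 29.6 and 26.9 CPM in siDEPDC1, against 21.4, 23.4 and 21.7 CPM in siCTL. The groups did not overlap, and the log2 fold change was 0.33 ± 0.079 (SE; edgeR adjusted p = 0.0012). CENPA shares 138 exon bases with SLC35F6 on the same strand, which had 2565 counts in all against 2085 for CENPA. The 3 genes of the machinery that loads it onto the centromere rose with it, where 16.5% of all tested genes rose. OIP5 (ENSG00000104147, chr15:41309268-41332621), which encodes MIS18 beta, was at 17.5, 15.8, 13.7 and 17.5 CPM in siDEPDC1, against 11.0, 12.9 and 10.3 CPM in siCTL. Its siDEPDC1 libraries were all higher, replicate 3 by the least, with a log2 fold change of 0.50 ± 0.11 (SE; edgeR adjusted p = 0.00035). OIP5 shares 470 exon bases with OIP5-AS1 on the opposite strand, which had 7796 counts in all against 1158 for OIP5, and the strand setting of the counter is not known here, so its value is uncertain. MIS18A, its partner, rose by 0.26 (log2, edgeR adjusted p = 0.032) and HJURP, the chaperone that deposits CENP-A, by 0.15 (log2, edgeR adjusted p = 0.032). Both calls were fragile. MIS18A lost it without siDEPDC1 replicate 1 or 2 or siCTL replicate 1 or 2 (edgeR adjusted p from 0.056 to 0.13), and HJURP without siDEPDC1 replicate 2 or 3 or any siCTL library (edgeR adjusted p from 0.054 to 0.14).

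CENPP (ENSG00000188312, chr9:92325484-92620533), of the CENP-OPQU complex, was the only inner gene that fell. It was at 20.3, 22.2, 19.0 and 21.6 CPM in siDEPDC1, against 24.8, 25.1 and 22.8 CPM in siCTL. The groups came close without overlapping, and the log2 fold change was -0.22 ± 0.082 (SE; edgeR adjusted p = 0.039). The call was lost without siDEPDC1 replicate 1 or 3 or siCTL replicate 1 or 2 (edgeR adjusted p from 0.065 to 0.15). CENPP shares 3719 exon bases with IPPK on the opposite strand, which had 1944 counts in all against 1877 for CENPP, so the 2 genes may not be separated. The rest of its complex, CENPO at -0.01, CENPQ at 0.09 and CENPU at 0.09 on the log2 scale, did not pass the test (edgeR adjusted p from 0.25 to 0.94). CENPU passed it without siDEPDC1 replicate 4 (0.15, edgeR adjusted p = 0.030). CENPC, the pillar that ties CENP-A to MIS12, was at 0.11, CENPL at -0.04 and CENPN, which reads the CENP-A nucleosome together with CENPL, at 0.09 on the log2 scale (edgeR adjusted p from 0.33 to 0.71).

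Among the 24 genes short of the threshold, log2 fold changes lay between -0.10 and 0.16, and no 95% interval reached beyond -0.31 or 0.38. A miss at these widths does not show that a gene was unaltered. Total counts of the 49 genes over the 7 libraries ran from 358 in MAD1L1 to 47650 in CENPF.

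Per kilobase of the kept transcript, the levels within a complex were uneven. In the chromosomal passenger complex AURKB was at 83.7 ± 6.46 CPM per kilobase in siDEPDC1 and 81.5 ± 1.99 in siCTL, and INCENP was at 38.8 ± 2.39 in siDEPDC1 and 38.0 ± 1.39 in siCTL (SD, n = 4 and n = 3). In the NDC80 complex SPC25 was the lowest, at 20.3 ± 0.727 CPM per kilobase in siDEPDC1 and 15.1 ± 1.30 in siCTL, and NDC80 the highest, at 58.0 ± 4.31 in siDEPDC1 and 46.3 ± 2.93 in siCTL. In the MIS12 complex, DSN1 was the highest in both groups, at 22.0 ± 1.92 CPM per kilobase in siDEPDC1 and 25.9 ± 1.22 in siCTL. NSL1 was the lowest there in siDEPDC1, at 4.63 ± 0.162, and was between PMF1 and MIS12 in siCTL, at 11.5 ± 0.472. These lengths are those of 1 annotated transcript per gene, so a level per kilobase shifts if another isoform is the main one. The fold changes were not divided by these lengths, although some moved when a trend with GC and length was removed, such as that of CENPE.

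**Figure D5:**
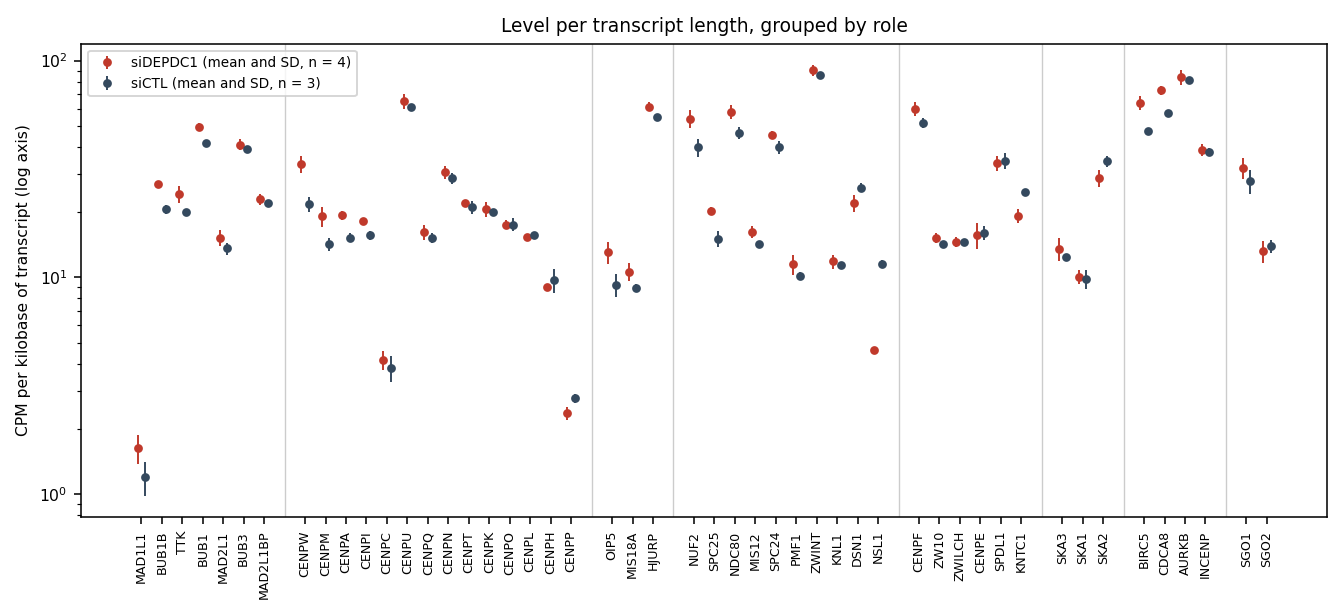
Level of each gene in CPM per kilobase of its kept transcript (y axis, logarithmic), grouped by role in the order checkpoint, inner kinetochore, CENP-A loading, outer kinetochore, corona, SKA, passenger and shugoshin, with grey lines between roles. Red points are siDEPDC1 (mean and SD, n = 4) and dark blue points siCTL (mean and SD, n = 3). Levels run from 1.19 CPM per kilobase in MAD1L1 to 90.2 in ZWINT, and the gap in NSL1 is the widest.

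The promoters of the 49 genes were compared with those of all genes in the RefSeq table, which had an entry for 40 of the 49. TTTGAA, searched on both strands from 250 bases before to 50 bases after the start site, was in the promoters of 19 of these 40 genes, and in 15.2% of all 35116 promoters. CCAAT, on both strands, was in 27 of 40 genes and in 34.6% of all promoters. The E2F-type word TTCCCGCC, on both strands, was in 6 of 40 genes and in 3.16% of all promoters. TTTAAA, a variant of the CHR word, reads the same on both strands and was in 4 of 40 genes and in 12.2% of all promoters. Where a gene had several promoters, a match in any was counted, whereas the share of all promoters is per promoter. Counted per promoter, the 40 genes had 48. Of these 48, TTTGAA was in 41.7%, CCAAT in 64.6%, TTCCCGCC in 12.5% and TTTAAA in 10.4%. In the window from 100 bases before to 50 after the start site, TTTGAA was in 16 of 40 genes. Per promoter that was 35.4% of their 48 promoters, against 6.84% of all promoters. By outcome, TTTGAA was in 8 of 16 genes that rose, 0 of 4 that fell and 11 of 20 that did not pass the test, shares whose differences were not tested. Besides those of the NDC80 complex, the promoters of BUB1B, CDCA8 and CENPA are shown here, with the same capitals. All promoters shown were picked among carriers of TTTGAA that rose, and the promoter of CENPW, the largest rise, lacks it.
BUB1B promoter, chr15:40160969-40161118, plus strand: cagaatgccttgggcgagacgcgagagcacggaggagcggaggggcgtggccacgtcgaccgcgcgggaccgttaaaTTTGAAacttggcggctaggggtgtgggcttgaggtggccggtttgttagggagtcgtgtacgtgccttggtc
CDCA8 promoter, chr1:37692416-37692565, plus strand: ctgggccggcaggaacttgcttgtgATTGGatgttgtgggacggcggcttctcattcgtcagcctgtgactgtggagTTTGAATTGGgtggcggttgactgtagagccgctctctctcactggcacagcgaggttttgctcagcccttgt
CENPA promoter, chr2:26785956-26786105, plus strand: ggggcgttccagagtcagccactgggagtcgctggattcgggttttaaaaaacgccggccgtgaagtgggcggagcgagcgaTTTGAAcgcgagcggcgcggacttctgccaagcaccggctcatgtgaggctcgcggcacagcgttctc
In BUB1B and CDCA8 the TTTGAA motif starts 23 bases before the start site, and in CENPA 18 bases before it. In CDCA8 it overlaps a CCAAT on the other strand.

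Other genes of the pathway were called in both directions. Of 34 further genes that act with the kinetochore, 11 rose, 7 fell and 16 did not pass the test (edgeR), with a median log2 fold change of 0.04. The share that rose was 32.4%, against 16.5% of all tested genes, and the share that fell was 20.6%, near the 17.9% of all tested genes. The number that rose was 7 without siDEPDC1 replicate 2 or without siDEPDC1 replicate 3. PTTG1, which encodes securin, the anaphase inhibitor of separase, was at 178 ± 8.75 CPM in siDEPDC1 (SD, n = 4) and 116 ± 3.20 CPM in siCTL (SD, n = 3), a log2 fold change of 0.61 ± 0.057 (SE; edgeR adjusted p = 1.3e-10). ESPL1, which encodes separase itself, fell, with a log2 fold change of -0.26 (edgeR adjusted p = 0.0015). CCNB1, the gene of cyclin B1, rose by 0.40 (log2, edgeR adjusted p = 8.7e-07), and CDK1, its kinase partner, fell by 0.18 (log2, edgeR adjusted p = 0.025). RBBP4, a histone chaperone of the MIS18 complex, rose by 0.40 (log2, edgeR adjusted p = 7.3e-07), and KNSTRN, which encodes kinastrin, by 0.39 (log2, edgeR adjusted p = 3.7e-05).

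The 4 falls with the smallest adjusted p were in DYNC1H1, CLASP2, RANBP2 and USP44. DYNC1H1, the dynein heavy chain that Spindly recruits, was at 1723 ± 149 CPM in siDEPDC1 (SD, n = 4) and 2454 ± 182 CPM in siCTL (SD, n = 3), a log2 fold change of -0.51 ± 0.065 (SE; edgeR adjusted p = 1.0e-07). CLASP2, which steers growing microtubule ends at kinetochores, fell by 0.44 (log2, edgeR adjusted p = 2.1e-07), and RANBP2, the nucleoporin that brings RANGAP1 to kinetochores, by 0.34 (log2, edgeR adjusted p = 2.3e-05). USP44, a deubiquitinase of the checkpoint, was at 4.06 ± 0.737 CPM in siDEPDC1 (SD, n = 4) and 7.08 ± 1.26 CPM in siCTL (SD, n = 3), a log2 fold change of -0.78 ± 0.16 (SE; edgeR adjusted p = 0.00017).

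General mitotic and replication genes give the setting. Of 10 mitotic genes (MKI67, TOP2A, CCNB1, CCNB2, CDK1, PLK1, CDC20, UBE2C, TPX2 and CCNA2), 6 rose, against 16.5% of all tested genes, and CDK1 fell (edgeR), with a median of 0.27 on the log2 scale and a summed level of 4030 to 4343 CPM in siDEPDC1 and 3645 to 3752 CPM in siCTL. Of 10 replication genes (MCM2 to MCM7, PCNA, CDC45, CDC6 and CDT1), none rose and MCM5 and CDC45 fell (edgeR), with a median of -0.12. The share of replication genes that fell, 20.0%, is near that of all tested genes, 17.9%. The summed level of the replication genes was 1463 to 1628 CPM in siDEPDC1 and 1580 to 1657 CPM in siCTL. CCNB1, CDK1, PLK1 and CDC20 are also counted among the 34 pathway genes. The 6 mitotic genes that rose went in the direction of most of the 49 genes, and the part of the share of mitotic cells in the kinetochore result was not tested.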

How the data were processed

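RNA was sequenced from MDA-MB-231 cells in 7 libraries (siDEPDC1 4, siCTL 3), with groups taken from the labels. The authors deposited unnormalized whole-number counts per Ensembl gene. STAR 2.7.9a, FastQC, DESeq2 and the build GRCh38 are named in the submitters' processing notes. No counter, annotation release or strand setting is named in the sources used here. Library totals were 7690583 to 15360409 counts, and intervals cover the spread between libraries.

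The deposited counts were filtered with filterByExpr by group and tested in R 4.3.3 using edgeR 4.0.16 (TMM normalization, robust quasi-likelihood fit, group as the only term, two-sided), with Benjamini-Hochberg adjustment over 16583 genes at 0.05. In a simulation with 4 against 3 libraries, run on 16340 genes, edgeR recovered 70% of 1.25-fold and 100% of 1.5-fold changes, and 5.61% of its calls were false. Only well-counted genes were changed, 50 at each fold size, far fewer than were called in the data. Recovery in genes with few counts was therefore not measured, and the false share depends on the number of changed genes. Coordinates, transcript lengths and 3′ UTRs came from GENCODE release 29, with 1 transcript kept per gene, which may not be the annotation used to count. Promoters came from RefSeq (GRCh38.p14).

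The genes and lists were chosen with earlier results of these data known. Library values are given for DEPDC1, the 12 called genes with the smallest adjusted p in each direction, and BUB1, BUB1B, MAD2L1, TTK, CENPA, NDC80, AURKB and BIRC5, and those of the 49 genes at an adjusted p of 0.05 to 0.1 are named. Of other pathway genes, up to 4 per direction were named by smallest adjusted p; ESPL1 and CDK1 were named after their values were seen. The 17 alternatives were DESeq2 size factors, library size alone, no count filter, a minimum of 50 counts per library in at least 1 group, limma-voom (limma 3.58.1), DESeq2 1.42.0, replicate numbers 1 to 3 as a block, those 6 libraries with no block, removal of a GC and length trend (loess, span 0.4) with and without the block, and each library left out in turn.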

Additional observations from a re-analysis of the deposited data

Results flagged for a closer look

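In 7 of 51 sets of 4 siDEPDC1 values, a library lay so far from the other 3 that its gap divided by the range passed Dixon's 95% critical value for 4 samples, and chance alone flags about 1 in 20 such sets. The sets share libraries and are not independent. For the summed level of the 49 genes, siDEPDC1 replicate 4 was at 4055 CPM, against 4400 to 4446 CPM in the other 3 (ratio 0.882). The same library was the lowest for SGO2 (45.7 CPM, others 58.4 to 59.0, ratio 0.952), SKA2 (69.9 CPM, others 83.2 to 85.1, ratio 0.869), BUB3 (293 CPM, others 328 to 334, ratio 0.843) and SPC25 (26.0 CPM, others 27.7 to 28.1, ratio 0.839). For BIRC5 the low library was siDEPDC1 replicate 1 (149 CPM, others 173 to 176, ratio 0.889), and for CENPT it was siDEPDC1 replicate 2 (49.0 CPM, others 52.0 to 52.7, ratio 0.832). Why these libraries differ was not tested.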

How the results depend on the processing

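Of the 25 genes called, 15 kept their call in all 17 alternatives, and 10 (MAD1L1, CENPF, CENPI, CENPP, SPC24, DSN1, MIS12, SGO1, MIS18A and HJURP) lost it in some; 7 uncalled genes passed in some with their direction kept, besides CENPE, which reversed. With no value for MAD1L1 under the filter of 50 counts, that gene had 16 alternatives. Leaving out 1 library in turn gave 13 (without siCTL replicate 1) to 23 genes higher, 4 to 5 lower, a median of 0.077 to 0.15, 7 (without siDEPDC1 replicate 2 or 3) to 13 other pathway genes higher and 5 to 8 lower, 2132 to 2981 of all genes higher and 2462 to 3159 lower, and -3.22 to -3.10 for DEPDC1. The replicate numbers do not pair the libraries (correlations of same-numbered deviations -0.085, -0.0059 and -0.058). With numbers 1 to 3 as a replicate block, 3 genes were lower, against 5 in the same 6 libraries without it, and 21 were higher, against 23. Over all tested genes, 2437 were lower with the block, against 2767 without it, and 2292 were higher, against 2627. With the GC and length trend removed, 27 genes were higher and 4 lower, and of all 16583 tested genes 3435 were higher and 3276 lower. With the replicate block as well the median was 0.19. DESeq2 gave 16 genes higher and 4 lower, and 2138 higher and 2359 lower of all 16583 tested genes. With no count filter, 15 genes were higher and 4 lower, and of all 35823 genes 2285 were higher and 3041 lower. CENPE reversed with the trend removed, to 0.15 (edgeR adjusted p = 0.0037), and to 0.19 (edgeR adjusted p = 0.0012) with the block too; the cause was not tested. Depth limits MAD1L1 most, at 358 counts over the 7 libraries. Changes of about 1.25-fold or less could be missed, since edgeR recovered 70% at 1.25-fold in the simulation. Genes with as few counts as MAD1L1 were not among those changed there.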
